A study of Mus musculus with 4 samples.

Results

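The retinal ganglion cell genes described here are 10 genes, Pou4f1, Pou4f2, Pou4f3, Rbpms, Sncg, Nefl, Nefm, Nefh, Thy1 and Slc17a6, which were taken by symbol from the 48897 genes of the deposited table. The libraries were made from whole retinas of wild-type C57BL/6 mice (C57BL/6J in the study's methods) at postnatal day 9, after the left eyes had received 0.6 nmol of miR-124-3p antagomir in 1 μl by intravitreal injection at postnatal day 3 (anti-miR-124 group) and the right eyes the same amount of a scrambled sequence (NC group). An antagomir is a chemically modified oligonucleotide that binds and blocks a mature miRNA. Each group has 2 RNA-Seq libraries of pooled retinas from mice of several litters, so the values are of pools and not of single animals, and treatment and eye side cannot be told apart. In the table each library carries its eye and a number, which 1 left-eye and 1 right-eye library have in common, and these pairs are named A and B here, with the libraries NC-A and anti-A in the first and NC-B and anti-B in the second.

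Retinal ganglion cells are the output neurons of the retina, and their axons form the optic nerve. They are a small share of retinal cells, and bulk RNA of the whole retina reports them only through transcripts that other retinal cells make little of. Their differentiation runs through transcription factors of the Pou4f (Brn3) family, and the mature cells carry long axons rich in neurofilaments and release glutamate at their targets in the brain. In a bulk sample, a lower value of a ganglion cell gene can mean fewer ganglion cells or less of the RNA in each cell, and these cannot be told apart.

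All 10 genes were detected in the 4 libraries with a TPM (a read count scaled by gene length and then by library size) of at least 1. Together they took between 0.0747% and 0.117% of the counts of a library. The counts of single members ranged from 26 reads for Pou4f3 to 7290 reads for Nefl, so the counting error was largest for Pou4f3. No member differed between the groups beyond the spread of the libraries. Instead, each of the 10 genes was higher in anti-A than in its NC library, and each was lower in anti-B than in its NC library.

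The libraries held between 16317239 and 18726963 counts on genes, and 17766 genes passed the filter on low counts, with all 10 members among them. Rod genes, which mark the photoreceptors that make up most of the retina, summed to between 11639 and 13399 TPM in each library. NC-A stood apart by its lens genes, of which 21 genes (crystallins, lens membrane and filament genes) summed to 65104 TPM there and to 131 to 185 TPM in the other libraries. Anti-B stood apart by its microglia and gliosis genes. In it, 13 microglia genes summed to 511 TPM, against 183 to 230 TPM in the other libraries, and 13 genes of reactive gliosis, the response of retinal glia to injury, summed to 992 TPM, against 446 to 650 TPM. None of the lens or microglia genes was at 0 in any library, and of the gliosis genes only Edn2 was at 0, in anti-A.

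Levels were compared between members on the TPM scale over the 4 libraries. Nefl, the light neurofilament subunit, had the highest mean level with 543 TPM, followed by Nefm with 255 TPM, Sncg with 185 TPM and Thy1 with 129 TPM. Nefh with 46.4 TPM, Slc17a6 with 46.2 TPM and Pou4f1 with 32.7 TPM formed the middle of the order. Pou4f2 had 15.9 TPM, Rbpms 12.9 TPM and Pou4f3 6.63 TPM. The ranges over the libraries overlapped for the neighbours Nefm and Sncg, Sncg and Thy1, Nefh and Slc17a6, Slc17a6 and Pou4f1, and Pou4f2 and Rbpms. Nefh was above Slc17a6 in only 2 of the 4 libraries, whereas the other neighbours kept their order within every library. The order depended on the gene length used. The TPM of each member was also rescaled to the length of all its annotated exons (GENCODE M21, chosen after the data were seen). The counts and the scaling over all genes stayed as before, so the rescaled values are not full TPM. On this scale Nefl was still first at 322, but Sncg at 159 was above Nefm at 143. Rbpms at 23.1 was above Pou4f2 at 16.0.

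**Figure D1:**
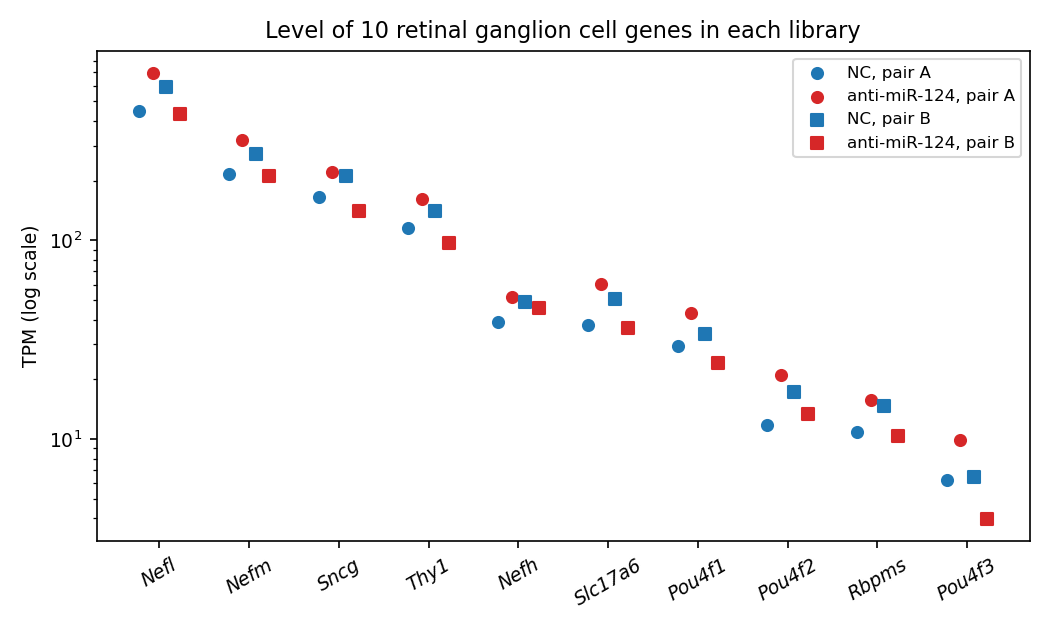
TPM of the 10 ganglion cell genes (logarithmic vertical axis) in each of the 4 libraries, with 1 point per library. In every gene anti-A (red circle) is highest, and anti-B (red square) is lowest in 8 of the 10 genes.

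Pou4f1 (Brn3a), a POU homeodomain transcription factor of most ganglion cells, lies on chromosome 14 (104461675 to 104468020, minus strand, GRCm38). It had 788 counts in NC-A, 926 in NC-B, 1126 in anti-A and 687 in anti-B. The anti-miR-124 libraries thus held both the highest and the lowest value, and the groups overlapped. In TPM the level was 31.8 ± 3.10 (SD, n = 2) in the NC group and 33.6 ± 13.4 (SD, n = 2) in the anti-miR-124 group. The log2-transformed fold-change was 0.03 (SE 0.25, adjusted p = 0.998 by the Benjamini-Hochberg method from edgeR's quasi-likelihood test).

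Pou4f2 (Brn3b), which is needed for the differentiation and survival of many ganglion cells, lies on chromosome 8 (78433009 to 78436652, minus strand). It had 202 counts in NC-A, 300 in NC-B, 355 in anti-A and 246 in anti-B. NC-A was the lowest here, and anti-A again the highest. The log2-transformed fold-change of 0.21 (SE 0.24, adjusted p = 0.989 by edgeR's quasi-likelihood test) was the largest of the members and was smaller than its standard error. Pou4f3 (Brn3c), found in a smaller set of ganglion cells and better known as a factor of hair cells of the inner ear, had 38 counts in NC-A, 40 in NC-B, 59 in anti-A and 26 in anti-B. The NC libraries differed little, while the anti-miR-124 libraries lay on either side of them. Its log2-transformed fold-change was 0.07 with the largest standard error of the members, 0.45 (adjusted p = 0.997 by edgeR's quasi-likelihood test). The ratio of Pou4f2 to Pou4f1 in TPM was 0.400 in NC-A, 0.506 in NC-B, 0.492 in anti-A and 0.559 in anti-B, so this ratio overlapped between the groups too.

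Rbpms, an RNA-binding protein used as a marker of ganglion cells as a whole, lies on chromosome 8 (33782643 to 33929896, minus strand). It had 673 counts in NC-A, 931 in NC-B, 963 in anti-A and 694 in anti-B. Anti-A and NC-B were close to each other and above the other libraries. The log2-transformed fold-change was -0.0045 (SE 0.20, adjusted p = 1.00 by edgeR's quasi-likelihood test). The annotated antisense gene Gm26632 and the intronic gene Gm26978 lie within Rbpms, and since the strand setting of the counting was not stated, their reads cannot be told apart from those of Rbpms here.

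The neurofilament genes encode the light, medium and heavy subunits of the intermediate filaments that fill large axons. Nefl (chromosome 14, 68083884 to 68087745, plus strand) had 4783 counts in NC-A, 6479 in NC-B, 7290 in anti-A and 4944 in anti-B. Nefm (chromosome 14, 68119545 to 68125004, minus strand) had 3694 counts in NC-A, 4802 in NC-B, 5416 in anti-A and 3886 in anti-B. After normalisation both genes had the same order of libraries, with anti-A highest, NC-B next, and the remaining libraries close together below. The log2-transformed fold-change was 0.07 (SE 0.22, adjusted p = 0.989) for Nefl and 0.08 (SE 0.19, adjusted p = 0.989) for Nefm by edgeR's quasi-likelihood test. The ratio of Nefm to Nefl in TPM varied little between libraries. It was 0.480 and 0.461 in the NC group and 0.462 and 0.489 in the anti-miR-124 group. In normalised counts each gene alone spanned 1.63-fold (Nefl) and 1.54-fold (Nefm) between its lowest and highest library. At the deposited positions given above Nefl and Nefm do not overlap. In the GENCODE annotation a longer transcript of Nefm reaches across Nefl on the opposite strand. Whether reads of that transcript entered the counts of Nefl was not tested.

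Nefh (chromosome 11, 4938754 to 4948064, minus strand), the heavy subunit that is added late as axons mature, had another order of libraries. It had 823 counts in NC-A, 1068 in NC-B, 1087 in anti-A and 1033 in anti-B. After normalisation anti-A was highest and NC-A lowest, with anti-B between NC-A and NC-B. The log2-transformed fold-change was 0.10 (SE 0.11, adjusted p = 0.989 by edgeR's quasi-likelihood test), with the smallest standard error of the members. The ratio of Nefh to Nefl in TPM was 0.0866 in NC-A, 0.0829 in NC-B, 0.0750 in anti-A and 0.105 in anti-B. The ratio of Ina, which encodes the neurofilament partner alpha-internexin, to Nefl was also highest in anti-B, with 0.382 in NC-A, 0.369 in NC-B, 0.360 in anti-A and 0.460 in anti-B.

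Sncg, which encodes gamma-synuclein, a presynaptic protein abundant in ganglion cells, lies on chromosome 14 (34370274 to 34374669, minus strand). It had 645 counts in NC-A, 841 in NC-B, 847 in anti-A and 585 in anti-B. The highest values of the groups were nearly equal and the lowest was in anti-B. Its log2-transformed fold-change of -0.11 (SE 0.21, adjusted p = 0.989 by edgeR's quasi-likelihood test) was the lowest of the members. Thy1 (chromosome 9, 44043384 to 44048579, plus strand), a surface glycoprotein used to purify ganglion cells, had 1069 counts in NC-A, 1323 in NC-B, 1466 in anti-A and 956 in anti-B. The anti-miR-124 libraries were again the highest and the lowest. Its log2-transformed fold-change was -0.03 (SE 0.22, adjusted p = 0.997 by edgeR's quasi-likelihood test).

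Slc17a6 encodes VGLUT2, the transporter that loads glutamate into the synaptic vesicles of ganglion cells, and lies on chromosome 7 (51621830 to 51671126, plus strand). It had 900 counts in NC-A, 1245 in NC-B, 1427 in anti-A and 932 in anti-B. The lowest libraries of the groups were nearly equal in counts, and the highest was anti-A. Its log2-transformed fold-change was 0.09 (SE 0.23, adjusted p = 0.989 by edgeR's quasi-likelihood test). The paralogue Slc17a7 encodes VGLUT1, which photoreceptors and bipolar cells use, and its ratio to Slc17a6 in TPM was 13.0 in NC-A, 10.4 in NC-B, 8.77 in anti-A and 16.8 in anti-B. Slc17a7 itself had 7634 counts in NC-A, 8397 in NC-B, 8142 in anti-A and 10198 in anti-B (log2-transformed fold-change 0.12, SE 0.08, adjusted p = 0.989 by edgeR's quasi-likelihood test).

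Over all genes, no gene had an adjusted p-value under 0.05 by edgeR's quasi-likelihood test (0% of the 17766 genes tested), while the unadjusted p-value was under 0.05 for 694 genes (3.91%), and DESeq2 called 36 genes. None of the 10 members was called by either tool, and none had an unadjusted p-value under 0.05, their p-values from edgeR lying between 0.375 and 0.983. The log2-transformed fold-changes of the members ranged from -0.11 to 0.21 with a median of 0.07, beside a median of 0.00066 over all genes tested. The groups overlapped for all 10 members, as in no member were both anti-miR-124 libraries above both NC libraries (16.5% of all genes tested) or below both (16.8%). With 2 libraries per group, an exact permutation test of a single gene cannot give a p below 0.333, so the adjusted values of the fit across all genes are given instead. The standard errors of the members ranged from 0.11 to 0.45, so differences of that size were not detectable with these libraries.

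Within the pairs, the direction differed between pairs for each member. In pair A the anti-miR-124 library was higher for 10 of 10 members, with a median log2 ratio of 0.45 (from 0.31 for Sncg to 0.73 for Pou4f2) after TMM normalisation of the counts. In pair B it was lower for 10 of 10 members, with a median of -0.48 (from -0.68 for Pou4f3 to -0.11 for Nefh). Over all genes tested these medians were -0.0094 and 0.0031. As fold the medians correspond to 1.37 in pair A and 0.716 in pair B. Such a change of direction, up in pair A and down in pair B, was found for 25.5% of all genes tested. No member was higher after miR-124-3p knockdown in both pairs (22.8% of all genes) or lower in both (24%). A difference of at least 0.25 on the log2 scale in both pairs, up in pair A and down in pair B, was found for 9 of the 10 members, with Nefh as the exception, and for 4.38% of all genes tested.

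**Figure D2:**
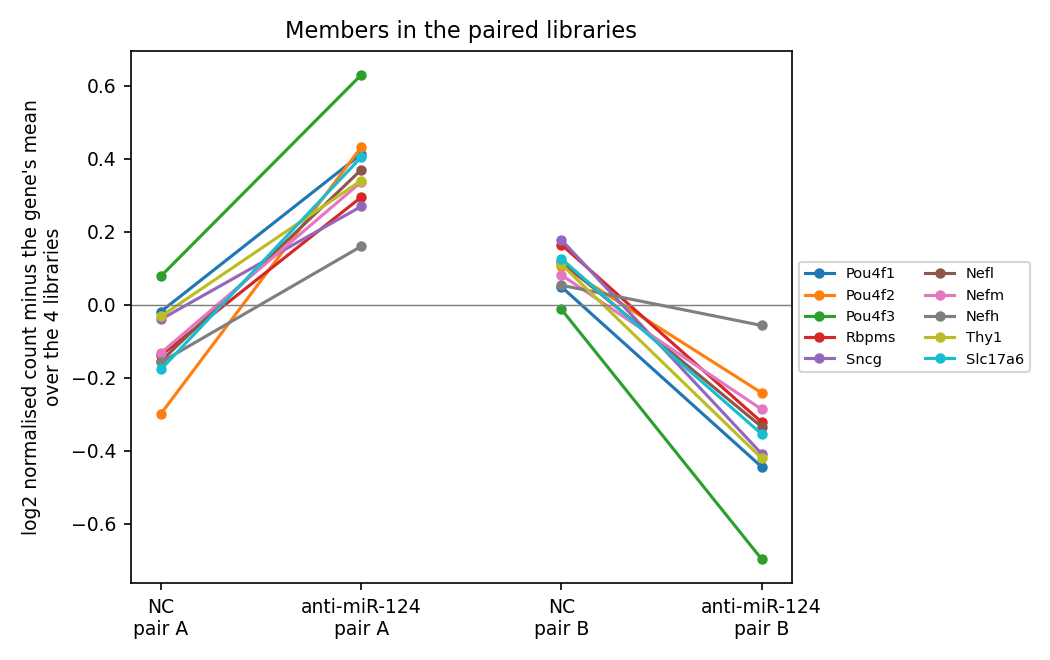
Log2 normalised count of each member minus its own mean over the 4 libraries (vertical axis), with 1 line per gene joining the NC and anti-miR-124 library of a pair. All 10 lines go up in pair A and down in pair B, and the line of Nefh in pair B is the flattest.

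The counting error of single pairs was small beside these ratios for most members. Nefl was 1.44-fold higher in anti-A (95% interval from 1.39 to 1.49, exact binomial) and 0.731-fold in pair B (0.704 to 0.759). Pou4f1 was 1.35-fold higher in pair A (1.23 to 1.48) and 0.711-fold in pair B (0.643 to 0.785). Pou4f2 was 1.66-fold higher in pair A (1.39 to 1.98) and 0.785-fold in pair B (0.661 to 0.933). For these 3 members the intervals of the pairs lay on opposite sides of 1. The interval was above 1 in pair A for 9 of 10 members and below 1 in pair B for 8 of 10. The intervals that held 1 were those of Pou4f3 in both pairs (0.958 to 2.26 and 0.365 to 1.05) and of Nefh in pair B (0.850 to 1.01). Such intervals cover counting error only and say nothing of the spread between pools of retinas. They treat reads as independent molecules, which reads are not, so they can be too narrow.

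**Figure D3:**
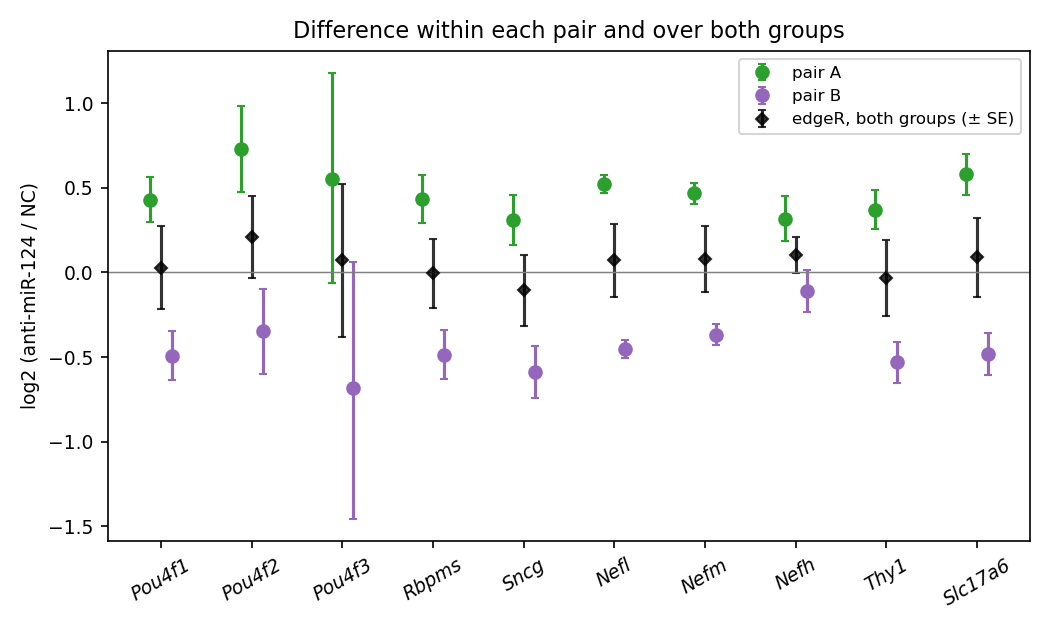
Log2 ratio of anti-miR-124 to NC for each member in pair A (green) and pair B (purple) with 95% counting intervals, and the edgeR log2 fold change over both groups with its standard error (black). The pairs lie on opposite sides of 0 for all 10 genes, and the value over both groups lies between them.

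The scale of the values did not turn these directions. In TPM the median log2 ratio of the members was 0.56 in pair A, where the median of all genes was 0.10, and -0.49 in pair B. With the lens genes left out of the TPM sum, it was 0.46 in pair A and -0.49 in pair B. On each of these scales 10 of 10 members were higher in pair A and 10 of 10 lower in pair B.

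The members also differed between libraries of the same group. Anti-A exceeded anti-B in 10 of 10 members by a median log2 ratio of 0.69 (0.22 to 1.33), beside a median of -0.02 over all genes tested. NC-B exceeded NC-A in 9 of 10 members by a median of 0.22 (-0.09 to 0.41), with Pou4f3 as the exception. Over all genes tested this median was -0.0018. The spread between the anti-miR-124 libraries was larger than that between the NC libraries for each of the 10 members in TMM-normalised counts. Anti-A was the highest for all 10 members, and 7 members had the full order anti-A, NC-B, NC-A and anti-B, from high to low. These orders follow in part from the pair ratios above, and their shares over all genes were not computed. Anti-A and NC-B were both above the other libraries for 9 of 10 members, against 18.8% of all genes tested. This was not particular to the members, as it held for 10 of 11 bipolar genes and 17 of 24 axon cytoskeleton genes. It also held for 12 of 18 other ganglion cell genes, but for only 5 of 12 amacrine genes and 2 of 9 rod genes. For the members the low libraries were thus the NC library with the lens transcripts and the anti-miR-124 library with the high microglia and gliosis genes. The part of these in the ganglion cell values was not tested. Leaving the lens genes out moved the TPM median of the members in pair A from 0.56 to 0.46 and left 10 of 10 higher.

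The direction over both groups depended on the library that was left out. Without anti-A, 10 of 10 members were lower after miR-124-3p knockdown, with a median log2-transformed fold-change of -0.34, and 7 of them had an unadjusted p-value under 0.05 by edgeR's quasi-likelihood test, beside 3.7% of all genes that were lower with such a value. Without anti-B, 10 of 10 were higher with a median of 0.37, and 6 had an unadjusted p-value under 0.05, beside 2.33% of all genes. Without NC-B 10 of 10 were higher with a median of 0.17, and without NC-A 7 of 10 were lower with a median of -0.04. Each of these fits has a group with 1 library left, whose spread cannot be measured and was assumed to be like that of the other group. Only the effect sizes are therefore given.

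**Figure D4:**
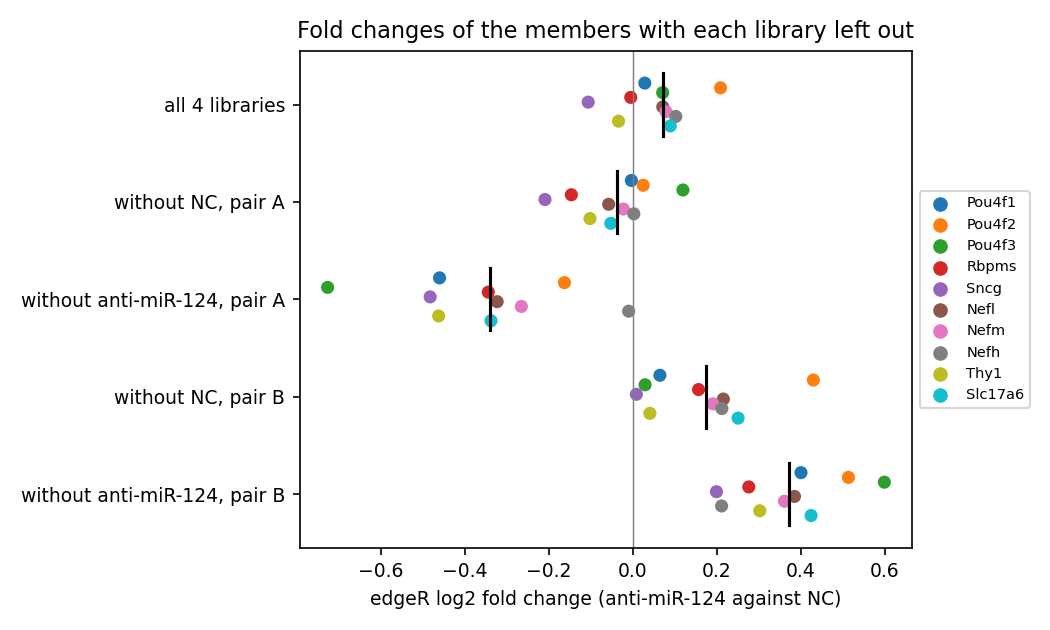
EdgeR log2 fold change of the 10 members (horizontal axis) with all 4 libraries and with each library left out, with the median as a black bar. The median moves from -0.34 without anti-A to 0.37 without anti-B.

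The sequences before the start sites of some members are shown as a description. Their part in the differences between libraries was not tested. A promoter entry of RefSeq (GRCm38.p6) was used where its window held the start of the gene in the deposited table. This gave 4 of the 10 members, and Pou4f3 was not searched. The promoters of all genes, given for comparison, were taken without these conditions. Each entry has 300 bases from 250 bases before to 50 bases after the start, given 5′ to 3′ on the strand of the gene. Capitals mark the GC box, a motif bound by Sp1 and related factors, whose letters are GGGCGG. A match on the opposite strand reads CCGCCC.
Pou4f1: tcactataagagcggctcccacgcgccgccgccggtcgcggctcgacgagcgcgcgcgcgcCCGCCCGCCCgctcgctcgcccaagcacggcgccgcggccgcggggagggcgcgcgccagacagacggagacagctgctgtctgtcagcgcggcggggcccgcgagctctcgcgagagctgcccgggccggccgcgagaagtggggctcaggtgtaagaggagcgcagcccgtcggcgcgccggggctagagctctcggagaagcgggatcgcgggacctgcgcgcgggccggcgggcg
Pou4f2: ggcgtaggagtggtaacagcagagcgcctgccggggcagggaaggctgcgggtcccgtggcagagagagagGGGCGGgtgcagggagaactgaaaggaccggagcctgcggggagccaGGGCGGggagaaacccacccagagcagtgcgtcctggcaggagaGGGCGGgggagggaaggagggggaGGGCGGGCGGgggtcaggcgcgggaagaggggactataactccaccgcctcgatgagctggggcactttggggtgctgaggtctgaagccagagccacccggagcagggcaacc
Sncg: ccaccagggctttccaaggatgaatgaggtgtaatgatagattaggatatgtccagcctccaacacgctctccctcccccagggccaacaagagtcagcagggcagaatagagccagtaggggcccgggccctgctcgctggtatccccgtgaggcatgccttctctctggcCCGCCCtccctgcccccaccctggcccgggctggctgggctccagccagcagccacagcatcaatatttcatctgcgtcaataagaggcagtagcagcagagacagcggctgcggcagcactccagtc
Slc17a6: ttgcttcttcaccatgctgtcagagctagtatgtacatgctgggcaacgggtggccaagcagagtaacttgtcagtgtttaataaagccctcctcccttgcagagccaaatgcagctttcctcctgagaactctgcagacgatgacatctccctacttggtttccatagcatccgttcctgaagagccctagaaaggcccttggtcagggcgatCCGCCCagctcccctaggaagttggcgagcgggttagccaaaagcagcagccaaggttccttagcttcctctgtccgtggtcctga
These stretches are chr14:104467950-104468249 (minus strand) for Pou4f1, chr8:78436598-78436897 (minus strand) for Pou4f2, chr14:34374620-34374919 (minus strand) for Sncg and chr7:51621580-51621879 (plus strand) for Slc17a6.

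The GC box occurred in all 4 of these promoters, with 2 matches in Pou4f1, 5 in Pou4f2, 1 in Sncg and 1 in Slc17a6, overlapping matches counted, and in 35.7% of the 32851 promoters of the same length. Their GC content was 78.33%, 69.67%, 61.33% and 53.67%, against a median of 52.7% over all promoters, so the promoters of the transcription factors were the richest in G and C. The homeodomain core TAATTA, a palindrome, was in none of the 4 and in 5.29% of all promoters. The E-box CATCTG, searched on both strands, was found in Sncg only and in 17.2% of all promoters. A palindromic E-box, CAGCTG, was found in Pou4f1 only and in 16.3%. The TATA box, with the letters TATAAA on either strand, was in none of the 4 and in 13.6% of all. A match is a description of the letters and not a site in use.

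Other genes of ganglion cells were read from lists that do not hold the members, and in each of these lists 0 genes had an adjusted p-value under 0.05 by edgeR's quasi-likelihood test. Of 18 other genes high in ganglion cells, such as L1cam, Nrn1 and Uchl1, 14 were higher in pair A and lower in pair B, with median log2 ratios of 0.28 and -0.32. Of 24 genes of the axon cytoskeleton, its transport and the initial segment, 20 had this pattern, with medians of 0.23 and -0.16. Of 24 other transcription factors of the ganglion cell lineage it was 13, with medians of 0.17 and -0.08. The shares with this pattern were read beside the 25.5% of all genes. Of 19 markers of ganglion cell types 6 had it, a share near that of all genes, with medians of 0.01 and 0.15.

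Genes higher in both pairs numbered 7 of 24 lineage factors, 2 of 18 other ganglion cell genes, 5 of 19 type markers and 3 of 24 axon genes, beside 22.8% of all genes tested. Cntn2, a cell adhesion molecule of axons, had 271 counts in NC-A, 312 in NC-B, 372 in anti-A and 410 in anti-B, so both anti-miR-124 libraries were above both NC libraries, as for 16.5% of all genes tested. Its log2-transformed fold-change was 0.35 (SE 0.09, unadjusted p = 0.00852, adjusted p = 0.989 by edgeR's quasi-likelihood test). Onecut2, a factor shared by ganglion and horizontal cell development, had 664 counts in NC-A, 774 in NC-B, 828 in anti-A and 950 in anti-B (log2-transformed fold-change 0.23, SE 0.08, adjusted p = 0.989 by the same edgeR test). Neurod2 of the lineage factors had log2 ratios of 0.12 in pair A and 0.28 in pair B. Sptbn4 of the axon genes had 0.20 and 0.18. Tbr1, a factor of some ganglion cell types, went the way of the members with log2 ratios of 0.88 in pair A and -0.25 in pair B, as did Shh, a signal that ganglion cells send to progenitors and glia, with 1.13 and -0.52. Bdnf, a neurotrophin, had log2 ratios of 0.32 in pair A and -1.16 in pair B. Ina had 2063 counts in NC-A, 2699 in NC-B, 2966 in anti-A and 2571 in anti-B. Prph, the gene of the intermediate filament peripherin, had only 12 counts in NC-A, 6 in NC-B, 9 in anti-A and 36 in anti-B.

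Sncb and Rbpms2 had pair ratios nearer to 0 than their paralogues among the members. Sncb had log2 ratios of 0.04 and -0.06 in pair A and pair B, beside 0.31 and -0.59 for Sncg. Rbpms2 had 0.21 and -0.17, beside 0.43 and -0.49 for Rbpms. Slc17a8, which encodes VGLUT3 of some amacrine cells, had 47 to 76 counts in a library and log2 ratios of -0.0016 and 0.63. These differences between genes were not tested.

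Other retinal cell types were compared by the same medians. Bipolar cell genes had the pattern of the members in 10 of 11 genes, with median log2 ratios of 0.22 in pair A and -0.34 in pair B. Amacrine genes, of cells that share the inner retina with ganglion cells, had the pattern in 7 of 12 genes, with medians near 0 of 0.07 and -0.06. Medians were also near 0 for rod genes with 0.04 and 0.01 over 9 genes and Müller glia genes with -0.05 and 0.04 over 6 genes. Horizontal cell genes were higher in both pairs for 4 of 5 genes, beside 22.8% of all genes, with medians of 0.35 and 0.16. Pigment epithelium genes had medians of 0.73 and 0.15 over 8 genes. Cone genes were lower in both pairs for 8 of 8 genes, with medians of -0.29 and -1.03. Microglia genes had medians of -0.05 and 1.37 over 13 genes and gliosis genes -0.35 and 2.11 over 12 genes. The high levels of microglia and gliosis genes were thus in anti-B, where 8 of the 10 members were lowest. The part of the microglia and gliosis genes in the levels of the members was not tested.

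**Figure D5:**
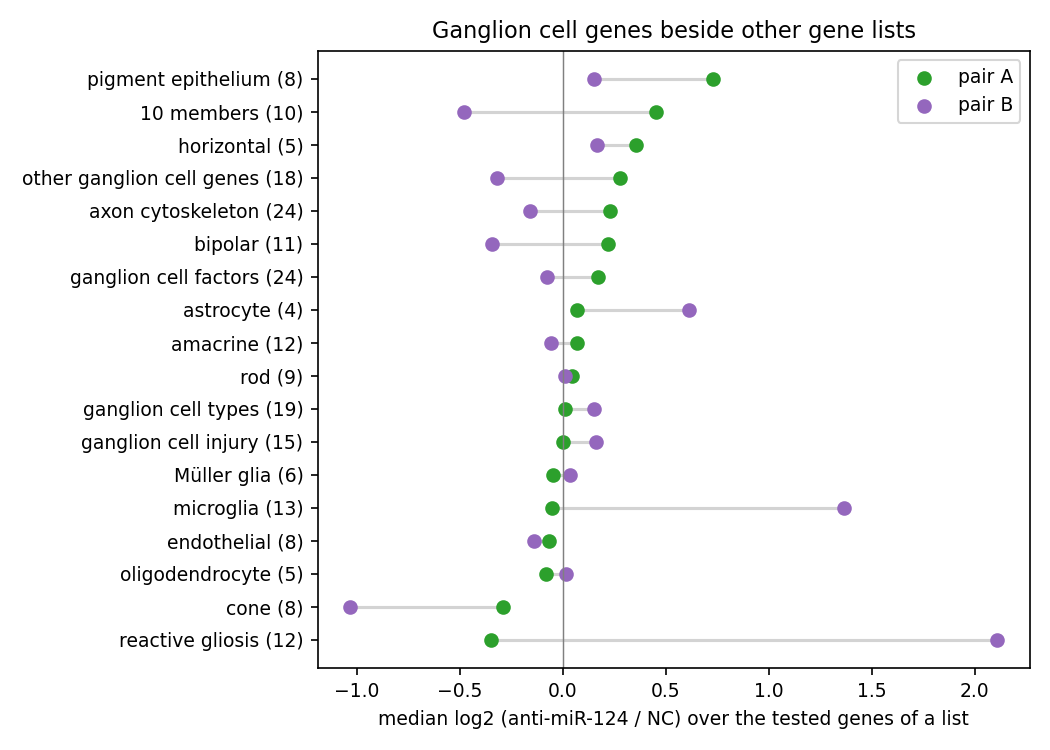
Median log2 ratio of anti-miR-124 to NC over the tested genes of each list (number of genes in brackets) in pair A (green) and pair B (purple), without the lens list. The 10 members have the medians 0.45 and -0.48, and other ganglion cell genes (18), axon cytoskeleton, ganglion cell factors, bipolar and amacrine genes have the same signs, while the lists of ganglion cell types and injury do not.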

How the data were processed

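The authors deposited 1 table with the read counts per gene (not normalised) of 4 libraries, the gene lengths in bases and RPKM values. The 4 RPKM columns were not used. Per the labels, HISAT2 was used and the build is mm9, but the positions are those of GRCm38. The counting tool and its strand setting are not given in the sources used here, and the library kit was directional. Libraries held 16317239 to 18726963 counts.

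The eye in a column's name gave its group. TPM was computed from counts and lengths. Groups were compared with edgeR 4.0.16 (R 4.3.3), by the two-sided quasi-likelihood test with TMM normalisation, its filter on low counts, no covariate, Benjamini-Hochberg adjustment over all 17766 genes and a threshold of 0.05. The code was tested on simulated data. DESeq2 1.42.0, other normalisations and filters, the shared number as a block, each library left out and the lens genes left out were alternatives. The study treats the libraries of a group as biological replicates, each made from pooled retinas, and the sources used here do not say how animals or litters were divided between them, so p-values measure the spread between these libraries. No 2 libraries agreed within sampling noise (chi-square of at least 3.44 for each degree of freedom).

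The members and the gene lists were chosen with earlier results of these data known. Named were all members and their paralogues. From the lists of ganglion cell, axon and injury genes, the 3 with the largest absolute log2-transformed fold-change among genes with a mean TPM of at least 1 were named. From the lists of other cell types, lens and gliosis no gene was named by this rule. L1cam, Nrn1, Uchl1, Edn2 and Opn4 were named after their values were seen. The values of 1 paralogue are not reported here. Genes were matched to RefSeq and GENCODE M21 by symbol.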

Additional observations from a re-analysis of the deposited data

How the results depend on the processing

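No member had an adjusted p-value under 0.05 under any alternative that kept all 4 libraries. The number of genes past the threshold, 0 by edgeR's quasi-likelihood test, was 379 without the filter on low counts and 36 with DESeq2, and it ranged from 0 to 256 with each library left out (57 without NC-B, 12 without anti-B and 256 without anti-A). The labels do not say that the shared number marks 1 animal or litter, and the departures from the group mean in libraries of 1 number correlated by -0.16 over genes. With the number as a replicate block 0 genes were called and 376 had an unadjusted p-value under 0.05, the median log2 fold change of the members fell from 0.07 to 0.0047 with 5 higher and 5 lower, and Pou4f1 turned to -0.027 and Pou4f3 to -0.033. With the crossed pairing, added after the data were seen, 160 genes were called. Rbpms, at -0.0045, turned to 0.00081 with total counts, 0.0028 without the filter and 0.0032 without lens genes. With each library left out, the log2 fold change ranged from -0.46 to 0.40 for Pou4f1, -0.16 to 0.51 for Pou4f2, -0.73 to 0.60 for Pou4f3, -0.34 to 0.28 for Rbpms, -0.48 to 0.20 for Sncg, -0.32 to 0.39 for Nefl, -0.27 to 0.36 for Nefm, -0.0095 to 0.21 for Nefh, -0.46 to 0.30 for Thy1 and -0.34 to 0.42 for Slc17a6. The cause was not tested. The planned search for seed matches of miR-124-3p was not run, as its sequence was not at hand. Depth limits Pou4f3 most, with 26 to 59 counts.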

Other observations

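Of genes listed for the response of ganglion cells to injury, 2 of 15 tested were up in pair A and down in pair B, beside 25.5% of all genes. In both pairs 5 were up (22.8% of all genes) and 3 were down (24%), and 5 were down in pair A and up in pair B. The difference of these shares from those of all genes was not tested. Atf3, a stress-induced transcription factor, had 30 counts in NC-A, 34 in NC-B, 25 in anti-A and 107 in anti-B, so only anti-B was high. Trib3, a pseudokinase of the stress response, had 32 counts in NC-A, 34 in NC-B, 52 in anti-A and 51 in anti-B, and Bbc3, which encodes the pro-apoptotic protein PUMA, had 161 and 172 against 194 and 231. No gene of this list had an unadjusted p-value under 0.05 by edgeR's quasi-likelihood test.

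Markers of ganglion cell types diverged from each other. Opn4, the melanopsin gene of light-sensitive ganglion cells, named after its values were seen, followed the members with log2 ratios of 0.54 in pair A and -0.57 in pair B. Spp1, which encodes osteopontin and marks alpha ganglion cells but is also made by activated myeloid cells, had 591 counts in NC-A, 860 in NC-B, 391 in anti-A and 14386 in anti-B, and the high library was the one with high microglia and gliosis genes. Kcng4, a potassium channel subunit of alpha ganglion cells, had 59 counts in NC-A, 68 in NC-B, 84 in anti-A and 119 in anti-B. Penk, the gene of proenkephalin, had 64 and 35 against 39 and 102. The part of other cells in Spp1 was not tested.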
